A study of Mus musculus with 15 samples.

Results

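Collagens, laminins and the other genes of the basement membrane were examined in mouse endometrial epithelial organoids, and they made up 46 of the 16729 genes measured. The set was chosen with earlier results of these data known, while its members were taken by name and by no measured value. They were every collagen chain and laminin chain in the table, together with *Nid1*, *Nid2*, *Hspg2* and *Agrn*. This gave 33 collagen chains, 10 laminin chains, *Nid1*, *Hspg2* and *Agrn*, while *Nid2* was not analysed here. Of these, 23 had a mean of at least 10 normalized counts over the 15 samples and were tested, and the other 23 are described by their values alone.

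The study grew organoids from uterine epithelium that had been peeled off the uterus with trypsin, broken into single cells with collagenase and embedded in Matrigel, a gel of basement membrane proteins, and it measured their RNA to ask which genes depend on SMAD2/3 signaling. All mice carried the floxed alleles *Smad2* flox/flox and *Smad3* flox/flox, were of a mixed C57BL/6J and 129S5/SvEvBrd background and were adult (6 to 8 weeks old unless otherwise stated in the methods), and according to the methods estradiol was given at weaning to induce *Ltf*-cre. The 4 groups were control + vehicle (floxed alleles without Cre, DMSO, n = 3), control + A83-01 (the same genotype, 500 nM A83-01, n = 4), *Smad2/3* cKO (*Ltf*-cre/+ added to the same floxed alleles, DMSO, n = 4) and *Smad2/3* cKO + A83-01 (that genotype with 500 nM A83-01, n = 4). A83-01 inhibits the type 1 receptors ALK4, ALK5 and ALK7, the kinases that activate SMAD2 and SMAD3. *Ltf*-cre acts in the luminal uterine epithelium, per the labels the organoids came from 4 different mice per genotype although the cKO samples carry 7 different numbers, and the medium of every group held EGF, FGF10, HGF, WNT3a, R-spondin and Noggin.

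The basement membrane is the thin sheet of matrix on which an epithelium stands. Laminins, each a trimer of an alpha, a beta and a gamma chain, bind integrins of the cell above. Collagen IV forms a second network that nidogen and the heparan sulfate proteoglycans perlecan (*Hspg2*) and agrin (*Agrn*) tie to the laminins. Fibrillar collagens, by contrast, build the stroma beneath and are mainly made by fibroblasts, and TGFβ signaling through SMAD2/3 is known as an inducer of matrix genes in many tissues.

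Normalized counts, which are estimated counts divided by 1 size factor per sample, summed to between 20241771 and 24423127 per sample, and the raw depth is not known from them. *Smad2* ran from 1045 to 1335 normalized counts in control + vehicle and from 821 to 924 in *Smad2/3* cKO, whereas *Smad3* ran from 1532 to 1741 and from 1170 to 1977. These are values of whole genes, so reads from outside the deleted exons are included and the deletion itself is not checked by them. Epithelial markers (8 of 8 in the table) had sums between 263045 and 336417 in control + vehicle, between 172322 and 287357 with A83-01, 137492 to 250164 in the cKO with vehicle and 135013 to 204713 in the cKO with A83-01, so that both cKO groups lay below control + vehicle. Stromal fibroblast markers (9 of 12 in the table) were few, their sum being between 51.5 and 130.4 in control + vehicle, between 7.45 and 62.7 with A83-01, between 6.85 and 49.5 in *Smad2/3* cKO and between 12.6 and 65.5 with both. Endothelial markers (2 of 6 in the table) summed to at most 27.6. Smooth muscle markers (4 of 6 in the table) summed to 73.9 to 219 in control + vehicle and to at most 86.5 in the other groups. *Smad2/3* cKO replicate 2 stood apart in the macrophage genes *Adgre1* (351 normalized counts, at most 9.01 in every other sample) and *Tyrobp* (128, listed at 0 in every other sample).

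The 46 members together took 0.163% to 0.260% of the normalized counts of a sample in control + vehicle. In control + A83-01 they took 0.0715% to 0.153%, in *Smad2/3* cKO 0.102% to 0.123% and in *Smad2/3* cKO + A83-01 0.0902% to 0.122%. The 3 control + vehicle samples thus lay above all 12 others.

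To show the start sites of members that fell with A83-01, RefSeq promoter sequence (GRCm38.p6) was read for 20 of the 23 tested members, as the 250 bases before the start of the RNA. The single motif searched was the SMAD-binding element CAGAC, on both strands (GTCTG on the other strand). It was present in 13 of the 23 promoters found for these members (56.5%), and in 42.2% of the 32851 promoters of the whole table. RefSeq starts can differ from the GENCODE starts used for the gene positions. Lines for 3 members follow, with the motif in capitals: *Lamb1* (chr12:31265043-31265292, plus strand) holds 1 match at position −167, *Col8a1* (chr16:57754738-57754987, minus strand) holds 1 match at position −103, counted from the start, and *Col4a5* (chrX:141475169-141475418, plus strand) holds none.
Lamb1: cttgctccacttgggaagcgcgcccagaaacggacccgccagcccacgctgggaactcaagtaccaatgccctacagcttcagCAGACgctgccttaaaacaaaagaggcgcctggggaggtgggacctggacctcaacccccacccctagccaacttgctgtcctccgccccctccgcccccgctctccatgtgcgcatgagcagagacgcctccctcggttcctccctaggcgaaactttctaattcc
Col8a1: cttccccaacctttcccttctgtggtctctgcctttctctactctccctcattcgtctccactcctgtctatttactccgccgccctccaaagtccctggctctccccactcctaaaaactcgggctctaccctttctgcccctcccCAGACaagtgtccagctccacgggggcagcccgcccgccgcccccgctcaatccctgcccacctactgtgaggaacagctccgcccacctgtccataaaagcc
Col4a5: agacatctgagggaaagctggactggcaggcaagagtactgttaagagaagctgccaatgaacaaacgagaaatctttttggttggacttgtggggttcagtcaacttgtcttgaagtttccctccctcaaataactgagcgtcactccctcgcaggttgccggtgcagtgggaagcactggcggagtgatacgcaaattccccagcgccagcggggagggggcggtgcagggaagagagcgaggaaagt
A match describes these letters alone and is not a binding site.

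Laminin chains had the highest levels per length among the members. Per kilobase of the longest coding transcript, *Lamb3* was at 1781 ± 310.4 normalized counts in control + vehicle (SD, n = 3), *Lamb1* at 791 ± 151 and *Agrn* at 640.2 ± 227. The range of *Lamb3* lay above those of *Lamb1* and *Agrn*, which overlapped. In the other 3 groups *Lamb3* had the highest mean of all members. In *Smad2/3* cKO it was at 1215 ± 206 (SD, n = 4), *Lamb2* at 440.2 ± 84.9 and *Col16a1* at 307 ± 185, and the ranges of the last pair overlapped.

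The collagen IV chains had low levels. *Col4a5*, which forms with *Col4a6* a collagen IV network of epithelia, was at 47.7 ± 2.00 normalized counts per kilobase in control + vehicle, whereas *Col4a1* and *Col4a2*, the chains of the common network, were at 2.87 ± 1.30 and 4.03 ± 3.26 (SD, n = 3). The last pair of genes starts 21 bases apart on opposite strands in GRCm38.

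Inhibition of the receptors in control organoids was compared first. A83-01 lowered 3 of the 23 tested members, *Lamb1*, *Col4a5* and *Col8a1*, and none rose (limma, with an adjusted p under 0.01 and a change of over 1.4-fold required in either direction). Over all 13066 genes tested, 4.91% were called in either direction while 1.86% were lower and 3.05% higher (243 and 399 genes). With each sample scaled to an equal sum, the split over all genes was 303 higher and 320 lower, the median of all genes moved by −0.109 on the log2 scale, and the 3 members stayed called. The median log2 fold change was −1.18 over the tested members and −0.01 over all genes tested. Of the tested members, 5 (*Col1a2*, *Col3a1*, *Col4a2*, *Col6a1* and *Col8a1*) have a mean under 10 in the 12 samples outside control + vehicle, so they entered the test through that group and their difference is in part set by the filter. In bulk organoids, less RNA per cell and fewer cells that make it cannot be told apart.

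*Lamb1* (chr12:31265234-31329644, GRCm38) encodes the beta chain that pairs with *Lama5* and *Lamc1* in the laminin of many epithelial basement membranes. It was measured at 3873, 4291 and 5555 normalized counts in the 3 control + vehicle samples and at 1008, 1513, 1765 and 1643 in the 4 control + A83-01 samples. Every treated sample lay below every vehicle sample. The means were 4573 ± 876 (SD, n = 3) and 1482 ± 333 (SD, n = 4), with a log2 fold change of −1.64 (SE 0.26, adjusted p = 0.00101), which is 3.12-fold lower on the scale of log2(value + 1). This call was kept when any 1 sample was left out.

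*Col4a5* (chrX:141475385-141689234) varied little within control + vehicle. It stood at 297, 322 and 316 normalized counts in control + vehicle and at 80.6, 153, 97.2 and 114 in control + A83-01. The 2 groups were well apart, and the log2 fold change was −1.52 (SE 0.31, adjusted p = 0.00528). Its adjusted p rose above 0.01 without any 1 of the control + vehicle samples (up to 0.0276, without replicate 2) and without control + A83-01 replicate 1, 3 or 4 (0.0133 to 0.016).

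*Col8a1* (chr16:57624258-57754737), a short-chain collagen that forms hexagonal lattices, was nearly absent outside control + vehicle. Its values were 27.8, 90.0 and 381 in control + vehicle, spread widely among the replicates, and 0, 3.13, 0 and 5.26 in control + A83-01. The log2 fold change of −5.47 (SE 0.95, adjusted p = 0.0018) depends on the pseudocount and was −7.26 with a pseudocount of 0.1 (adjusted p = 0.0237) and −3.26 with a pseudocount of 10. Without control + vehicle replicate 2 the adjusted p was 0.012, and without replicate 3 the gene fell under the minimum mean. Its partner chain *Col8a2* had a mean of 0.971 over all samples and was not tested.

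*Lama3* and *Lamb3*, an alpha and a beta chain of the laminin that anchors epithelia at hemidesmosomes, were not called. *Lama3* was measured at 2748, 3846 and 4873 in control + vehicle and at 313, 419.9, 1522 and 791 in control + A83-01. The groups did not overlap. The log2 fold change was −2.56 (SE 0.59, adjusted p = 0.0116). *Lama3* was called without control + A83-01 replicate 3 (adjusted p = 0.00559), and also without *Smad2/3* cKO replicate 1 (0.00967) or *Smad2/3* cKO + A83-01 replicate 2 (0.00772), which share the estimate of the spread. *Lamb3* was at 7363, 8318 and 10323 and at 5798, 6778, 8362 and 7779, with overlapping ranges and a log2 fold change of −0.27 (95% interval −0.64 to 0.10).

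The partners of *Lamb1* did not separate the groups. *Lama5*, the alpha chain, was at 2611, 5568 and 3663 in control + vehicle and at 1495, 3387, 3157 and 2768 in control + A83-01 (95% interval of the log2 fold change −1.16 to 0.07). *Lamc1*, the gamma chain, was at 672, 826 and 1088 and at 576, 1137, 1644 and 963 (−0.35 to 0.86). *Lamb2*, the beta chain that can stand in the place of *Lamb1* in a trimer, was at 1598, 3680.4 and 1508 and at 945, 2415, 1715 and 1592 (−1.07 to 0.29). In all 3 chains the treated and vehicle samples overlapped.

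The control samples that share a number in their labels deviated together from their group means. These calls changed in fits with a block, although the values do not settle whether the label number pairs the samples. With that number, within each genotype, as a random block in the fit of all samples, 7 members were called lower, among them *Lama3* (adjusted p = 0.000552), *Col6a1* (0.00464) and *Hspg2* (0.00821) beside the 3 above. With the replicate number as a fixed block, 5 were called, with *Lama3* (0.000256) among the additions. With that block and the 7 control samples alone, 2 were called, among them *Lamb1* (0.00462), while *Lama3* was at 0.0109, *Col8a1* at 0.02 and *Col4a5* at 0.0325. Only *Lamb1* was called when the fit held these 2 groups with no block.

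Further members that were not called had these values. *Hspg2*, perlecan, was at 147, 176 and 671 in control + vehicle and at 73.1, 88.6, 136 and 101 in control + A83-01, with a log2 fold change of −1.41 (adjusted p = 0.0695) that was −0.72 without control + vehicle replicate 3. *Agrn*, agrin, was at 4065, 6511 and 3372 and at 1879, 3696, 2959.8 and 1858 (−0.85, adjusted p = 0.0609). *Col6a1*, a chain of the beaded filaments of collagen VI, was at 13.3, 37.7 and 23.5 and at 0, 0, 2.85 and 0 (−4.09, adjusted p = 0.0316). *Col6a1* was called without *Smad2/3* cKO + A83-01 replicate 2 (0.00747). Of these 3, only *Agrn* overlapped between the groups. In all, the groups did not overlap in 8 tested members, 7 of them lower and 1 higher (*Col24a1*, at most 9.43 in these samples), and in 21.6% of all genes tested.

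**Figure D1:**
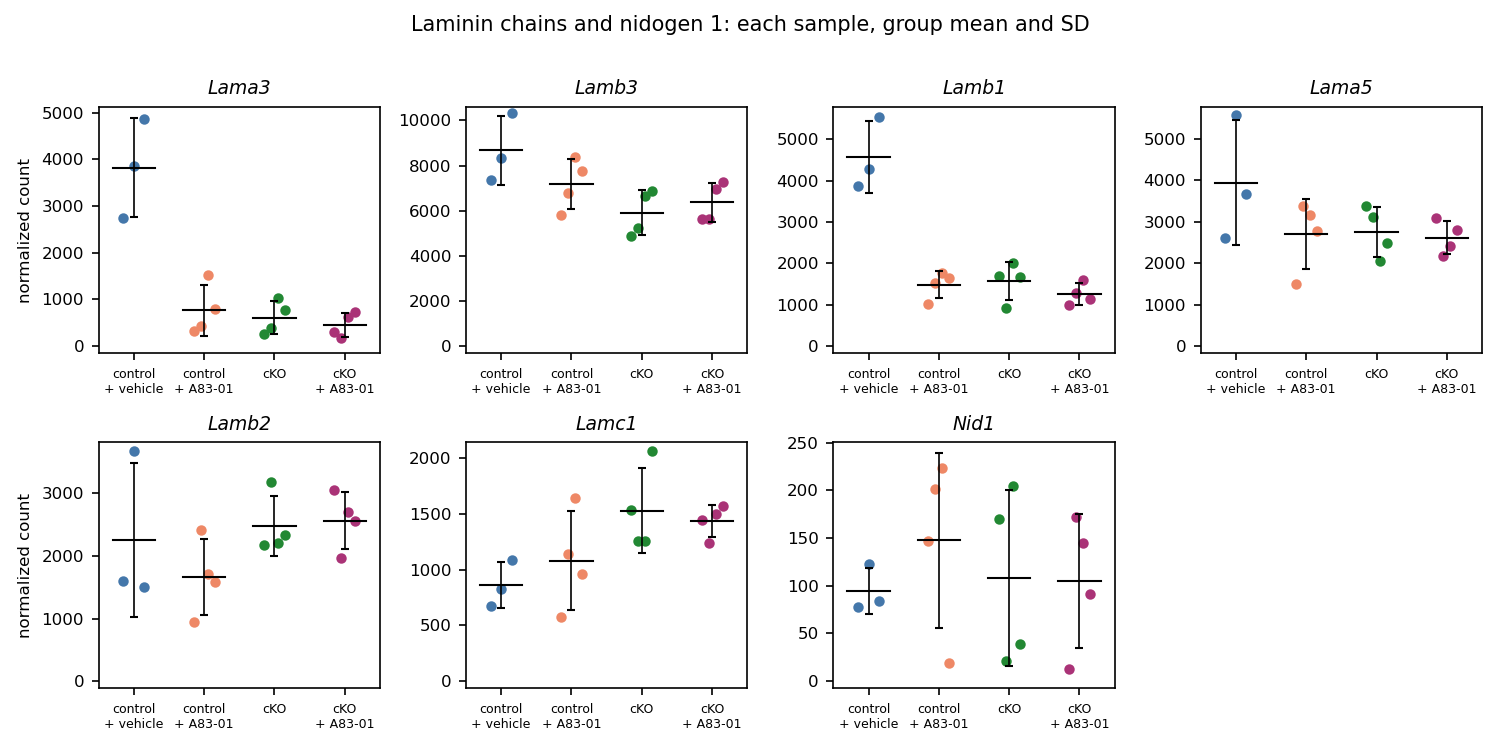
Normalized counts of 6 laminin chains and *Nid1* (y axis, linear) in each sample of the 4 groups (x axis), with long bars for the group means and whiskers for the SD. For *Lama3* and *Lamb1* the 3 control + vehicle samples lie above all 12 others, whereas *Lama5*, *Lamb2* and *Nid1* overlap between the groups.

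Deletion of *Smad2* and *Smad3* was compared next, in organoids grown with vehicle. This comparison uses the same 3 control + vehicle samples as the one above, so the results of the 2 are not independent. In *Smad2/3* cKO organoids 5 of the 23 tested members were lower, among them *Lama3*, *Lamb1*, *Agrn* and *Col8a1*, and none rose. Of all genes tested 9.24% were called in either direction while 4.07% were lower and 5.17% higher (532 and 675 genes, or 693 and 542 with each sample scaled to an equal sum, where the same 5 members were called). The median log2 fold change was −1.26 over the tested members and 0.01 over all genes tested. The groups did not overlap in 12 tested members, 11 of them lower and 1 higher, and in 30.7% of all genes tested. *Col1a2*, *Col3a1*, *Col4a2*, *Col6a1* and *Col8a1*, which entered the test through control + vehicle, are among the tested members here too. Their difference is in part set by the filter, and so are these counts and the median of the members.

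*Lama3* was measured at 253, 388, 1017 and 765 normalized counts in the 4 *Smad2/3* cKO samples, all below the control + vehicle values given above. Vehicle-treated controls averaged 3822 ± 1063 (SD, n = 3) and the deleted organoids 606 ± 349.8 (SD, n = 4). The log2 fold change was −2.82 (SE 0.59, adjusted p = 0.00404), which is 7.07-fold lower on the scale of log2(value + 1). Its adjusted p was 0.011 to 0.0194 without any 1 of the control + vehicle samples, 0.0131 without *Smad2/3* cKO replicate 1 and 0.0127 without replicate 2.

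*Lamb3* was at 4882, 5235, 6659.6 and 6877, all below the control + vehicle samples, with a log2 fold change of −0.55 (adjusted p = 0.0387) that was not called.

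*Lamb1* was at 1688, 916, 2014 and 1675 in *Smad2/3* cKO, with a mean of 1573 ± 465 (SD, n = 4). The log2 fold change was −1.58 (SE 0.26, adjusted p = 0.000821), and the call was kept when any 1 sample was left out. *Lama5* was at 3385, 3111, 2053 and 2482 in *Smad2/3* cKO, overlapping the control + vehicle samples, and *Lamb2* at 2182, 3187, 2201 and 2342, also with overlap (95% interval −0.44 to 0.92). *Lama5* had a log2 fold change of −0.47 (95% interval −1.09 to 0.14). *Lamc1* was at 1531, 1257, 1258 and 2066 in *Smad2/3* cKO, above every control + vehicle sample, and its log2 fold change of 0.82 missed the threshold (adjusted p = 0.0568).

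*Agrn* (chr4:156165290-156197488) was at 2340.2, 1346, 2231 and 1715 in *Smad2/3* cKO, below the lowest control + vehicle sample. The log2 fold change was −1.26 (SE 0.28, adjusted p = 0.00524), 2.40-fold lower. Its adjusted p rose to 0.016 and 0.0371 without control + vehicle replicate 1 or 2, and to 0.017 and 0.0169 without *Smad2/3* cKO replicate 2 or 4. The call was also lost with the replicate block (adjusted p = 0.0147), with only these groups fitted and without a trend in the variance prior. *Hspg2* was at 41.1, 73.6, 93.5 and 97.9, without overlap, and was not called (−1.82, adjusted p = 0.0149).

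*Col8a1* was listed at 0 in 3 of the 4 *Smad2/3* cKO samples and at 1.19 in replicate 4 (log2 fold change −6.36, SE 0.95, adjusted p = 0.000351, −9.02 and −3.47 with pseudocounts of 0.1 and 10). Without control + vehicle replicate 3 it was under the minimum mean. *Col4a5* was at 139, 159, 225 and 99.5, all below control + vehicle, and was not called here (−1.06, adjusted p = 0.026). *Col18a1*, the multiplexin whose end fragment is endostatin, was at 1204, 1336 and 1306 in control + vehicle and at 457, 156, 937 and 329 in *Smad2/3* cKO. It was without overlap and not called (−1.73, adjusted p = 0.0221), but was called without *Smad2/3* cKO replicate 3 (0.00335). *Col6a1*, at 0, 0, 4.43 and 0 in *Smad2/3* cKO, was not called (−3.97, adjusted p = 0.0256) except without *Smad2/3* cKO + A83-01 replicate 2 (0.00558). The smooth muscle marker *Acta2* and the epithelial markers *Krt8* and *Krt19* were also called lower in *Smad2/3* cKO, and the leukocyte marker *Ptprc* higher in both comparisons. Leukocyte markers (5 of 6 in the table) summed to 1261 to 2896 in control + vehicle, 3402 to 8757 in control + A83-01 and 2116 to 5795 in *Smad2/3* cKO, and mesothelial markers (2 of 4, mostly *Msln*) to 10634 to 31301, 9836 to 17108 and 2367 to 12308. *Ptprc* averaged 22.8, 168 and 225 in the same groups, so the leukocyte sums came mostly from other genes of that list. Whether the sums stand for cells of these types, and their part in the values of the members, was not tested.

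**Figure D2:**
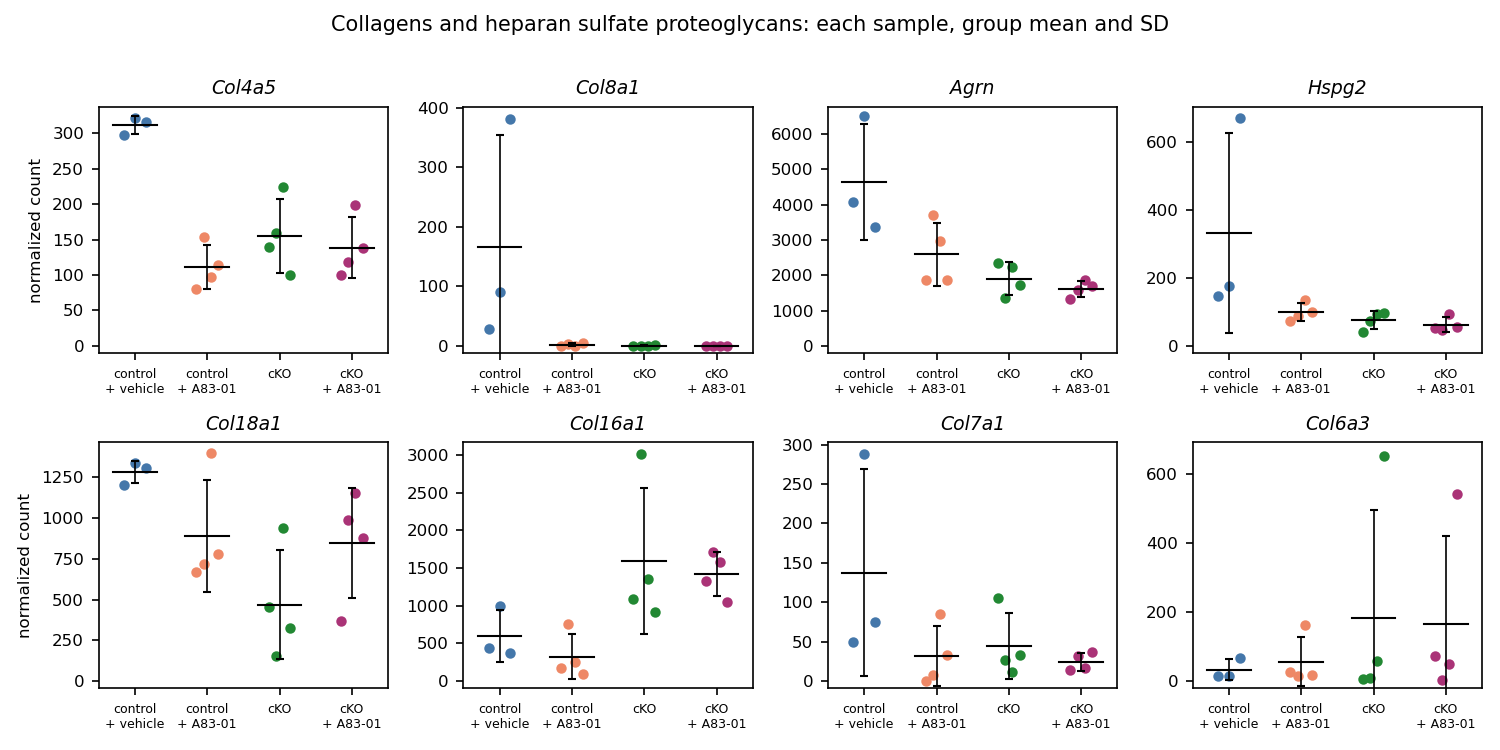
Normalized counts of 6 collagens and of the proteoglycans *Agrn* and *Hspg2* (y axis, linear) in each sample of the 4 groups (x axis), with long bars for the group means and whiskers for the SD. *Col8a1* is at least 27.8 in control + vehicle and at most 5.26 in every other sample, and *Col6a3* is high in 1 sample of each *Smad2/3* cKO group.

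The ratio of chains within a sample does not depend on the scaling of that sample. *Lama3* per kilobase over *Lama5* per kilobase was 0.746 to 1.44 in control + vehicle. With A83-01 it was 0.134 to 0.520, in *Smad2/3* cKO 0.0807 to 0.535 and in *Smad2/3* cKO + A83-01 0.0849 to 0.279, so that it was highest in the 3 vehicle samples. *Lamb1* over *Lamb2* was 1.13 to 3.59, 0.610 to 1.04, 0.280 to 0.890 and 0.314 to 0.633 in the same order of groups. *Lamb3* over *Lamb2*, in contrast, overlapped between control + vehicle (2.61 to 7.92) and each other group. Ratios are descriptions and were not tested.

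**Figure D3:**
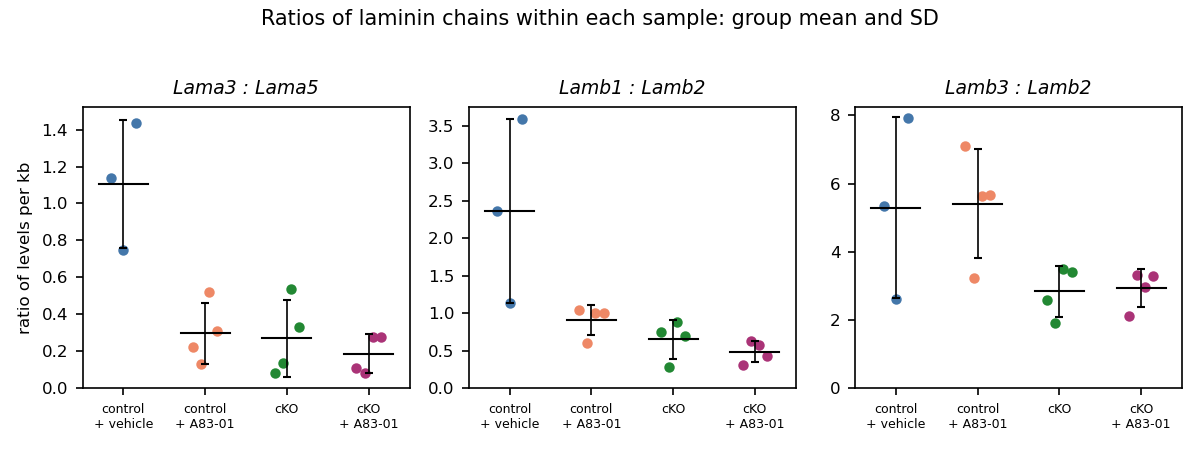
Ratio of the levels per kilobase of 2 laminin chains within each sample (y axis, linear) for the 4 groups (x axis), with a point per sample, long bars for the group means and whiskers for the SD. *Lama3* over *Lama5* is 0.746 to 1.44 in control + vehicle and at most 0.535 elsewhere, while *Lamb3* over *Lamb2* overlaps between groups.

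A83-01 was also given to *Smad2/3* cKO organoids, and no member passed the test. None of the 13066 genes was called by limma (0.0%), and at an unadjusted p below 0.05 there were 407 genes (3.11%), among them 3 tested members. *Lama3* was at 307, 171, 618 and 727 in *Smad2/3* cKO + A83-01 and *Lamb1* at 983, 1277, 1600.3 and 1139. Each overlapped the values in *Smad2/3* cKO. For *Lamb1* the 95% interval of the log2 fold change was −0.81 to 0.22, and for *Lama3* it was −1.59 to 0.74. *Col4a5* was at 100.3, 119, 198 and 138 and *Agrn* at 1321, 1574, 1868 and 1686 in *Smad2/3* cKO + A83-01, with intervals of −0.76 to 0.46 and −0.76 to 0.32. *Col8a1* was listed at 0 in all 4 samples with deletion and inhibitor.

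Under A83-01, no tested member was called between control and *Smad2/3* cKO organoids, and 0.0383% of all genes tested (5 genes) were called, with 1452 genes (11.1%) and 5 tested members at an unadjusted p below 0.05. *Col16a1*, a collagen that sits on the surface of other fibrils and is found near epithelial basement membranes, came closest. It was at 439, 996 and 372.6 in control + vehicle, 173, 758, 255 and 99.7 in control + A83-01, 1092, 3019, 1358 and 919 in *Smad2/3* cKO and 1331, 1712, 1586 and 1052 in *Smad2/3* cKO + A83-01. Both cKO groups lay above control + A83-01 without overlap, as did 3.35% (with A83-01) and 1.82% (with vehicle) of all genes tested. The log2 difference between genotypes was 2.53 (SE 0.52, adjusted p = 0.0548) with A83-01 and 1.38 (SE 0.56, adjusted p = 0.102) with vehicle. With the replicate number as a block these were 2.53 (adjusted p = 0.00453) and 1.64 (0.00395), although the replicate numbers do not pair control with *Smad2/3* cKO samples. The highest value was that of *Smad2/3* cKO replicate 2, the sample with the high *Adgre1* and *Tyrobp*, and without it the difference with vehicle was 1.02.

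Deletion and inhibitor were set directly against each other, as *Smad2/3* cKO against control + A83-01. None of the 13066 genes was called by limma (0.0%), while 1179 genes (9.02%) and 4 tested members had an unadjusted p below 0.05. The interval was −0.46 to 0.57 on the log2 scale for *Lamb1*, −1.43 to 0.91 for *Lama3* and −0.14 to 1.07 for *Col4a5*. The lowest adjusted p among members was that of *Col16a1*, with a difference of 2.56 (SE 0.52, adjusted p = 0.121).

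The effect of A83-01 was then compared between genotypes. The interaction was called for no member and for 0.551% of all genes tested (72 genes), with 1865 genes (14.3%) and 9 tested members at an unadjusted p below 0.05. The estimates were 1.34 (SE 0.36, adjusted p = 0.0821) for *Lamb1*, 2.14 (SE 0.81, adjusted p = 0.226) for *Lama3* and 5.19 (SE 1.29, adjusted p = 0.0613) for *Col8a1*. *Col8a1* and *Col6a1* entered the test through control + vehicle, which is part of this comparison. Their estimates are therefore in part set by the filter, and so is the count of members. *Col6a1* had the lowest adjusted p. It was at 0, 0, 4.43 and 0 in *Smad2/3* cKO and at 29.3, 0, 39.2 and 9.55 in *Smad2/3* cKO + A83-01, and its interaction estimate was 6.89 (SE 1.56, adjusted p = 0.04). With the label number as a random block, *Col6a1* (adjusted p = 0.00679) and *Lamb1* (0.00729) were called, and with the fixed replicate block 1 member was. *Col6a1* was also called without *Smad2/3* cKO + A83-01 replicate 2 (0.00461). In the fit without a block, A83-01 calls in control but not in *Smad2/3* cKO organoids therefore do not show that the effects differ.

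**Figure D4:**
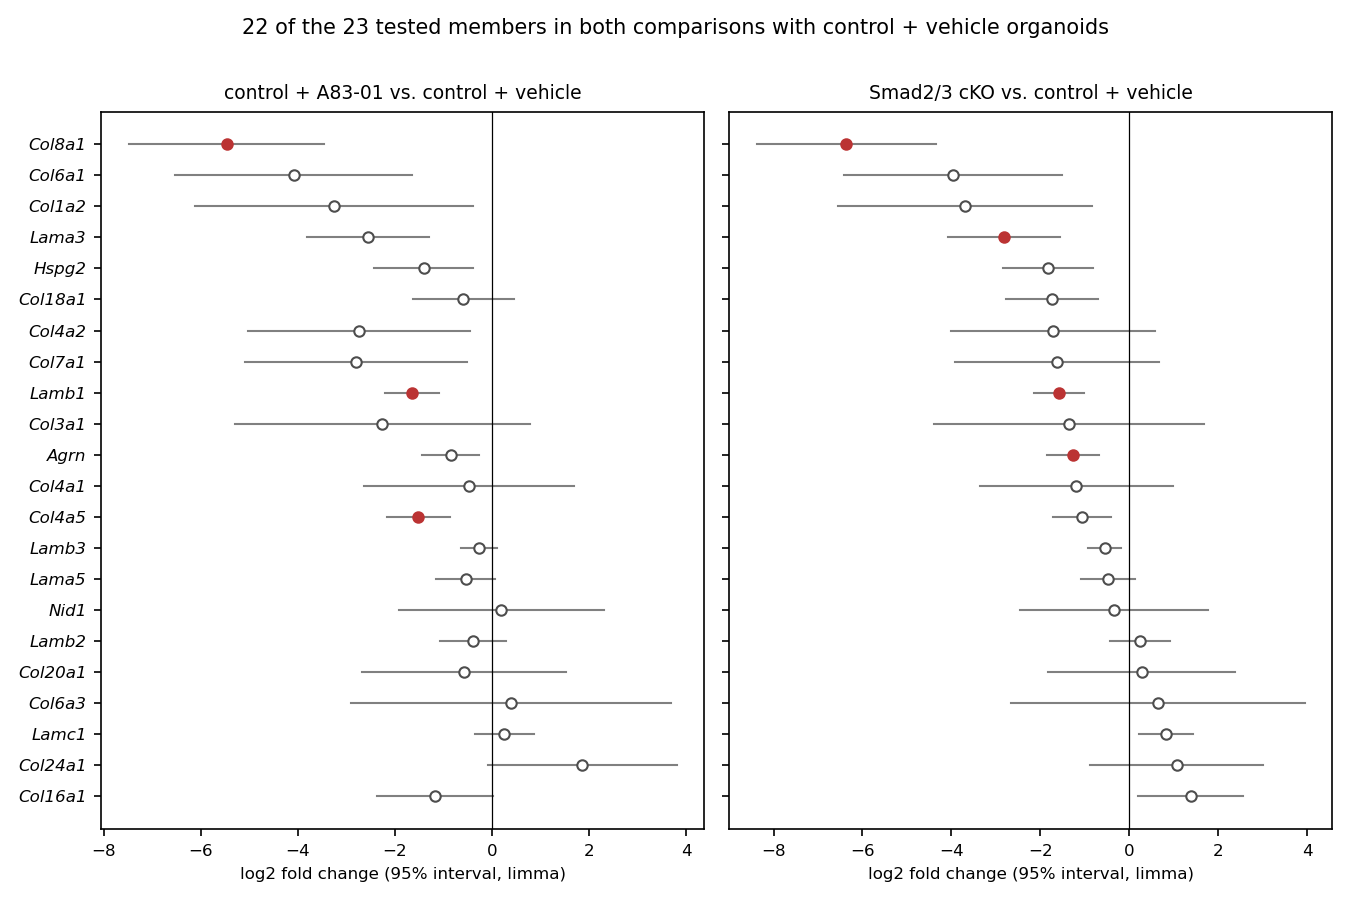
Log2 fold changes of 22 of the 23 tested members (x axis) with 95% intervals from limma, for control + A83-01 and for *Smad2/3* cKO, each against the same control + vehicle samples. Filled points are called members, 3 on the left and 4 on the right, all below 0.

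The remaining collagens spread widely between samples. *Col7a1*, the anchoring fibril collagen, was at 49.3, 288 and 74.5 in control + vehicle and had a range of 0.792 to 84.8 with A83-01, of 11.4 to 106 in the cKO with vehicle and of 13.98 to 36.8 in the cKO with A83-01. *Col6a3* was high in *Smad2/3* cKO replicate 4 (653) and *Smad2/3* cKO + A83-01 replicate 4 (544) and at most 163 in every other sample. *Nid1* overlapped between all groups (77.8 to 122, 18.8 to 223, 20.6 to 205 and 13.1 to 172), and no comparison of these 3 genes was called.

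*Col4a1* was at 23.8, 24.1 and 9.10 in control + vehicle, 8.06, 23.2, 8.06 and 14.9 in control + A83-01, 15.5, 0, 32.9 and 6.74 in *Smad2/3* cKO and 3.40, 29.2, 16.9 and 4.43 in *Smad2/3* cKO + A83-01. These values were low and scattered in every group. *Col4a2* was at 6.42, 23.3 and 48.3 in control + vehicle and at 0, 8.29, 9.09 and 0 in control + A83-01. In *Smad2/3* cKO it was at 4.52, 1.3196, 34.2 and 2.52, and in *Smad2/3* cKO + A83-01 at 6.83, 11.8, 8.85 and 15.9. Both overlapped between the groups and neither was called. *Col4a3*, *Col4a4* and *Col4a6* were under the minimum mean.

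The 23 members that were not tested had means of 0.699 to 9.38, and 151 of their 345 values were listed at 0. They included *Col1a1*, *Col5a1*, *Col5a2*, *Col17a1*, *Lama1*, *Lama4* and *Lamc3*. The highest mean was in control + vehicle, the smallest group, for 18 of them. The share over all genes under the minimum mean was not computed, so this count is not read as particular to these members. *Col27a1*, a fibrillar collagen, was at 28.8, 43.9 and 32.2 in control + vehicle and at most 1.80 in control + A83-01, 0 in *Smad2/3* cKO and 9.97 in *Smad2/3* cKO + A83-01. *Col5a1* had the highest single value, 71.8 in control + vehicle replicate 2. Of the fibrillar collagens 3 of 10 were tested, and *Col1a2* was at 42.2, 70.5 and 11.4 in control + vehicle and at most 19.9 elsewhere, uncalled in both comparisons (adjusted p = 0.138 and 0.0695). The summed stromal fibroblast markers had a median of 112.6 in control + vehicle and of 25.6, 27.1 and 20.3 in the other groups, the range in *Smad2/3* cKO lying below that in control + vehicle and those with A83-01 overlapping it, and their part in these low values was not tested.

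Genes that act with the members were counted from 3 written lists, which were not tested as sets. Over all genes tested, 4.91% were called with A83-01 in control organoids and 9.24% in *Smad2/3* cKO. The median log2 fold changes over all genes tested were −0.01 and 0.01. Of the 24 tested genes of other basement membrane and associated matrix proteins, 1 rose (*Ntn1*) and 2 fell (*Ecm1* and *Tnc*) with A83-01 in control organoids, and 2 rose (*Ntn1* and *Papln*) and 3 fell (*Ecm1*, *Npnt* and *Tnc*) in *Smad2/3* cKO. The median log2 fold changes of this list were −0.88 and −0.71. Tenascin-C (*Tnc*), a matrix glycoprotein of remodeling tissue, ran from 104 to 229 in control + vehicle and from 0 to 6.41 in control + A83-01 (log2 fold change −6.37, adjusted p = 0.000616), and from 0 to 4.98 in *Smad2/3* cKO (−5.34, 0.00141). *Ecm1*, extracellular matrix protein 1, changed by −1.66 (adjusted p = 0.00541) and −2.32 (0.000291), and nephronectin (*Npnt*), an integrin ligand, by −2.66 (0.00257) in *Smad2/3* cKO.

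Of the 19 tested receptors of laminin and collagen and hemidesmosome genes, 2 fell with A83-01 in control organoids, the syndecans *Sdc2* and *Sdc3*, which carry heparan sulfate at the cell surface. In *Smad2/3* cKO, 3 fell (*Itga2*, *Sdc2* and *Sdc3*) and 1 rose (*Itga1*), the last being with *Itga2* an alpha chain of collagen-binding integrins. The median log2 fold changes of this list were −0.61 and −0.61. *Sdc3* ran from 179.6 to 436 in control + vehicle, 16.6 to 32.4 in control + A83-01 and 9.19 to 85.6 in *Smad2/3* cKO (adjusted p = 0.00107 and 0.00166). *Sdc2* ran from 437 to 514, 46.5 to 157 and 43.0 to 82.2 (adjusted p = 0.00142 and 0.000238).

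Of the 21 tested enzymes and chaperones that modify collagen, 1 rose (*P4hb*, a subunit of prolyl 4-hydroxylase) and 1 fell (*P3h4*, which takes part in the hydroxylation of collagen) with A83-01 in control organoids. With the deletion, 2 rose (*P4hb* and the crosslinking enzyme *Tgm2*) and 1 fell (*P3h4*). The median log2 fold changes were −0.28 and −0.40. *P3h4* ran from 216 to 256 in control + vehicle and from 54.2 to 93.0 in control + A83-01 (log2 fold change −1.61, adjusted p = 0.00969). No gene of the 3 lists was called in the other comparisons, in which 0.0% to 0.551% of all genes tested were called.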

How the data were processed

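RNA of 15 organoid samples was sequenced from SMART-Seq v4 libraries. Per the labels and the study's methods, the authors estimated counts with Salmon (version 1.4.0) against GRCm39 and used DESeq2 (version 1.32.0). The deposited table holds a signal per gene and sample, the estimated counts divided by a size factor per sample (median ratio 1.01137 in each sample over 12745 genes). Whole reads were not recoverable, so no count test was run and depth and counting error are unknown. Of 16729 genes, 16697 matched a symbol.

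Values were tested as log2(value + 1) with limma (version 3.58.1, R version 4.3.3), with all 15 samples in 1 fit, for genes with a mean of at least 10 (13066 genes). P-values were adjusted by Benjamini-Hochberg over those genes, and a gene was called at an adjusted p below 0.01 and a fold above 1.4 or below 0.714. 1 tested member is counted but not reported here. Positions and transcript lengths are from GENCODE M21 (GRCm38), not the authors' build. The members and gene lists were chosen with earlier results of these data known. Every tested member could be named, with the values of each sample for called members and partner chains, and outside the members up to 5 called genes per comparison with the largest log2 fold changes. *Col6a3*, *Col27a1* and other members singled out for their values were picked after these were seen.

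Control samples that share a label number deviated together from their group means (r = 0.354 to 0.423 over genes in the 3 pairs). Other pairs had a mean of −0.133, but 395 with vehicle and 396 with A83-01 reached 0.347. The values thus do not settle whether the control numbers pair the samples. Whether a number stands for a mouse is not stated, and the number 367 occurs with both genotypes, so the block by label number joined samples of 1 genotype only. The cKO groups share 1 label number, 369 (r = 0.355), while 367 with vehicle and 371 with A83-01 reached 0.394. Their 4 pairs by replicate number, which share no label number, gave −0.166 to 0.375, so the replicate numbers do not pair the cKO samples. Alternatives covered the pseudocount, the filter, scaling, sample weights, blocks, the samples fitted, thresholds and leaving out each sample. The block in control organoids alone was added after the data were seen.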

Additional observations from a re-analysis of the deposited data

Results flagged for a closer look

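In 68 groups of 4 values the highest or lowest sample was compared with the others by Dixon's ratio. In 11 it was past its 95% critical value, each for a highest value. The rate of about 1 group in 20 by chance holds for normally distributed values, and these counts were not log-transformed. With the other samples at 0 the ratio is 1 whatever the value. The 11 are therefore a list to look at, and whether they exceed chance cannot be judged from this rate. In control + A83-01 replicate 3 these were *Col18a1* (1402 normalized counts, against at most 778 in the other 3 samples), *Col6a3* (163), *Col6a1* (2.85) and *Col3a1* (2.09), the last 2 listed at 0 in the other samples of the group. In *Smad2/3* cKO replicate 3 they were *Col4a2* (34.2, against at most 4.52) and *Col6a1* (4.43, the others at 0). *Col6a3* was past it in *Smad2/3* cKO replicate 4 (653, against at most 59.7) and in *Smad2/3* cKO + A83-01 replicate 4 (544, against at most 71.5). *Lamb2* was highest in *Smad2/3* cKO replicate 2 (3187, against at most 2342), *Col20a1* in *Smad2/3* cKO + A83-01 replicate 3 (49.3, against at most 14.1) and *Col8a1* in *Smad2/3* cKO replicate 4 (1.19, the others at 0). The group of 3 control + vehicle samples was not examined in this way.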

How the results depend on the processing

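The call of *Lamb1* in both comparisons with control + vehicle held under every alternative that was run, whereas the number of members called varied. With A83-01 in control organoids (3 members), it was 5 with the replicate block, 7 with the block by label number, 5 with a covariate that splits the samples into low and high label numbers, 1 with only these groups fitted, 6 at an adjusted p below 0.05 and 1 to 5 with a sample left out. For the deletion with vehicle (5 members) it was 10 at an adjusted p below 0.05 and 2 to 6 with a sample left out. Under A83-01 the deletion gave 0 members, but 1 (*Col16a1*) with the replicate block. The interaction gave 0 members, but 1 with the replicate block or the covariate, 2 with the block by label number, 1 at an adjusted p below 0.05 and 0 to 1 with a sample left out. A83-01 in *Smad2/3* cKO, and deletion against A83-01, gave 0 throughout. The replicate block gave 7 members for the deletion with vehicle, adding *Col16a1*, *Hspg2* and *Lamb3* and losing *Agrn*. Without a filter *Col27a1* was also called in both comparisons with control + vehicle. The cause of these changes was not tested.

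The direction was followed only for chosen fold changes and, *Col16a1* apart, not for those smaller than their SE. Among those followed, it changed for 2 genes that were called in neither setting. *Col16a1* with A83-01 in *Smad2/3* cKO was at −0.03 and went to 0.0245 with sample weights, 0.33 without *Smad2/3* cKO replicate 2 and 0.11 without *Smad2/3* cKO + A83-01 replicate 4 (−0.24 to 0.33 with a sample left out). *Lamb2* with A83-01 in control organoids was at −0.39 and went to 0.0256 without control + vehicle replicate 2 (−0.62 to 0.0256 with a sample left out). Over all genes, A83-01 in control organoids gave 138 higher and 119 lower with only these groups fitted, 844 and 740 with the block by label number, and 784 and 673 at an adjusted p below 0.05. The deletion with vehicle gave 1177 and 1106 at an adjusted p below 0.05. The interaction gave 13 and 59, with 58 and 128 by label number and 70 and 138 at an adjusted p below 0.05.

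With 3 control + vehicle samples and an unknown depth, the members under the minimum mean were left untested, and the fold change of a gene near 0, such as *Col8a1*, rests on the pseudocount.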
